A study of Homo sapiens with 12 samples.

Results

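The genes described here are the assembly factors of the mitochondrial ribosome (mitoribosome) and the factors that run mitochondrial translation initiation and elongation. They were chosen by name, as genes with these roles, with earlier results of these data known. The list held 32 symbols, of which 31 were found among the 19112 genes of the screen table, 25 of them assembly factors and 6 translation factors. The symbol not found, MRM2, is the current name of FTSJ2, which was found, and RNMTL1 and WBSCR16 are now called MRM3 and RCC1L. Each of the 31 genes was targeted by 4 sgRNAs.

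HEK293 cells, a human embryonic kidney line, carried the Brunello genome-wide knockout library and were grown for 15 days in medium that held pyruvate and uridine, which spare cells a strict need for respiration. The 12 samples fell into 4 conditions of 3 independent replicates each. These were the ethanol solvent (EtOH), actinonin at 15 µM (ACT), an inhibitor of peptide deformylase under which mitochondrial protein synthesis becomes aberrant, chloramphenicol at 5 µg/mL (CAP), an inhibitor of peptide bond formation on the mitoribosome, and both drugs together (ACT CAP). All cells came from a pool infected and selected with puromycin before the drugs were added, and the doses were set to slow growth to a comparable degree in the 3 drug conditions. A pool of cells from 1 line was measured, so no single knockout clone was examined, and guide abundance holds no expression by which the cell type could be checked.

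The mitoribosome is built in the mitochondrial matrix from a small and a large subunit, each made of a ribosomal RNA encoded in mitochondrial DNA and of proteins imported from the cytosol. Assembly factors, among them GTPases, RNA helicases and rRNA methyltransferases, fold, modify and proofread these particles and then leave. Initiation factors place the mRNA and the first tRNA on the finished ribosome, and elongation factors bring in each further tRNA and move the ribosome along. Its products are core subunits of the respiratory chain.

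For each gene and condition the deposited table gives a beta, which is the change in abundance of its guides fitted over the replicates against a reference that it does not name, and a z, which is beta divided by its standard error. A lower z means that more guides against the gene were lost. Values per replicate were not used here, so the error of each value is the standard error of the fit, and the depth of each sample is unknown here. The median z of all 19112 genes was -2.03 in EtOH, -1.73 in ACT, then -1.78 in CAP and -1.70 in ACT CAP. A z is therefore read against that of other genes in the same condition. The z of METTL17 and of NOA1 in ACT stood as calendar dates in the table and were recomputed from the deposited Wald p-value.

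Loss of most of these genes was harmful in EtOH in both classes. The median z was -6.27 for the 25 assembly factors and -5.61 for the 6 translation factors, at the 1.81 and 3.36 percentile of all genes as medians of the members' percentiles. Of the assembly factors 19 lay in the lowest 10% of z, and of the translation factors 4, where 10.0% of all genes lie. TUFM, the elongation factor Tu that delivers tRNA to the ribosome, had the lowest z of the 31 at -9.27, with a beta of -1.83 ± 0.197 (standard error). It was followed by GTPBP6, a GTPase of late large-subunit assembly that also splits ribosomes, at -9.15 with a beta of -1.31 ± 0.144. At the other end lay MTIF3, an initiation factor, at -2.61 and NOA1, a GTPase of small-subunit assembly, at -2.73, with betas of -0.244 ± 0.0933 and -0.375 ± 0.138. The betas of MTIF3 and NOA1 differed by less than their joined standard error, and both z were close to the median of all genes.

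**Figure D1:**
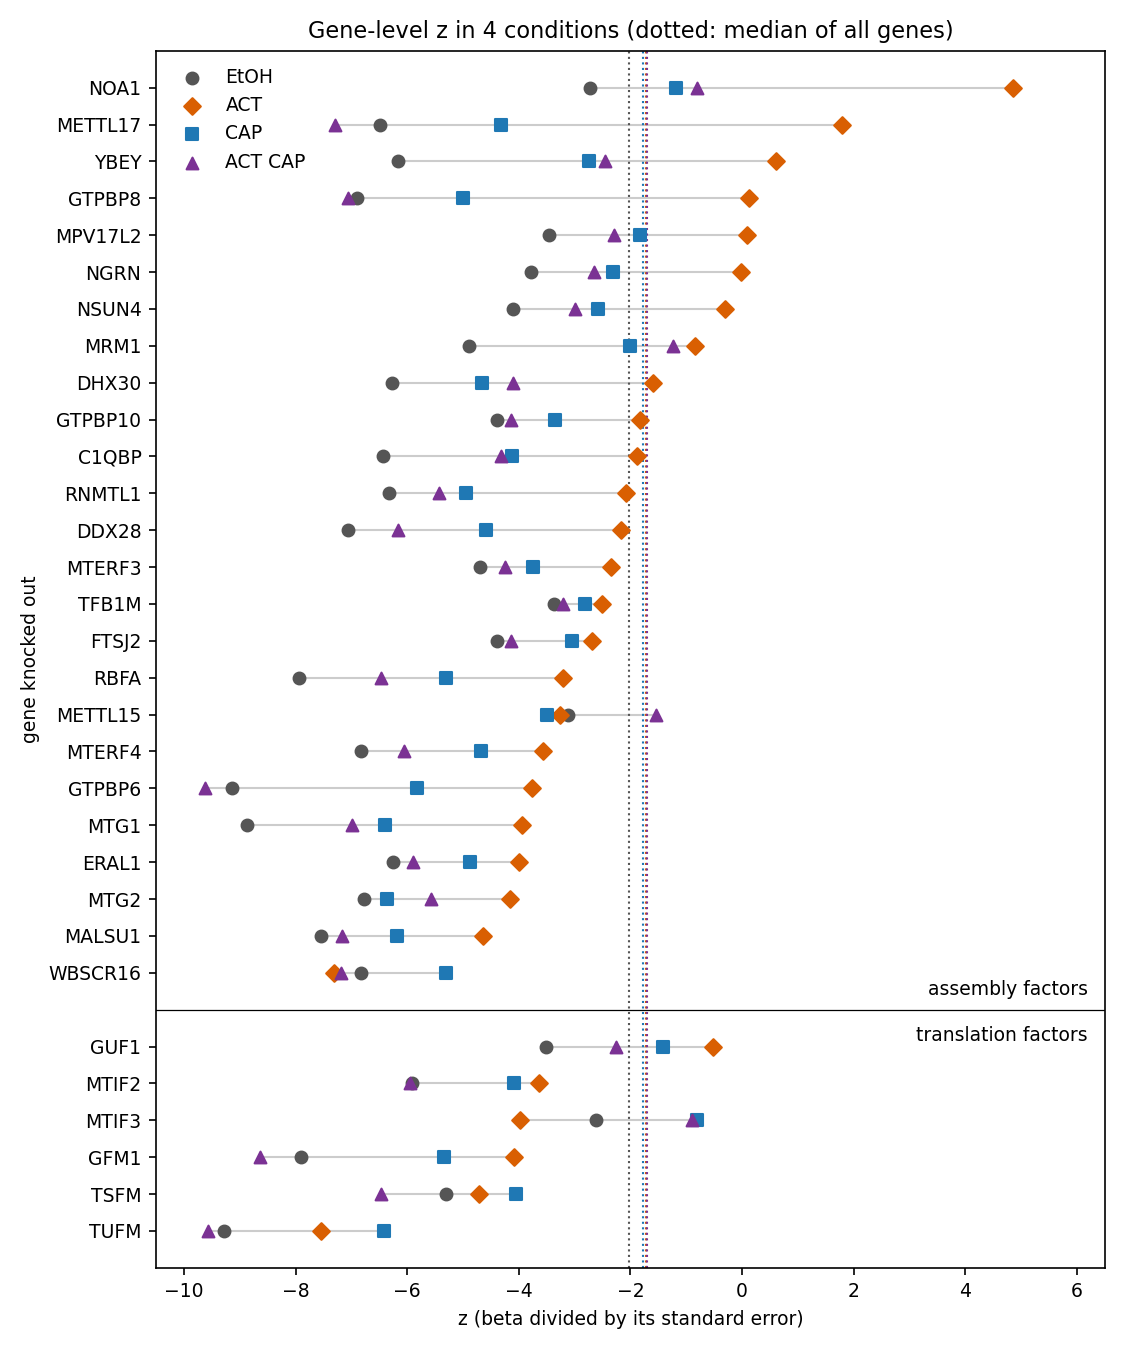
Each row is a gene and each symbol its z (beta divided by its standard error, horizontal axis) in EtOH, ACT, CAP or ACT CAP; dotted lines are the medians of all genes, at -2.03, -1.73, -1.78 and -1.70. The ACT symbol is the rightmost in most assembly factors, with NOA1 at 4.86, whereas TUFM and TSFM have their highest z in CAP.

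By their medians the classes lay apart in ACT. The median percentile of the assembly factors went from 1.81 in EtOH to 39.3 in ACT, and was 5.73 in CAP and 5.25 in ACT CAP. For the translation factors it was 3.36 in EtOH, 9.01 in ACT, then 7.53 in CAP and 0.790 in ACT CAP. In ACT 5 of 25 assembly factors lay in the lowest 10% by z (11 when genes were ordered by beta), against 14 in CAP and 17 in ACT CAP. Of the 6 translation factors 4 lay there in each condition, but not the same 4. They were TUFM, TSFM, GFM1 and MTIF2 in EtOH, CAP and ACT CAP. In ACT MTIF2 lay outside, at the 12.9 percentile, and MTIF3 lay within, at 9.53 (35.5 in EtOH). ACT was the condition of highest percentile for 23 of 25 assembly factors and 3 of 6 translation factors, against 27.1% of all genes. The exceptions among assembly factors were WBSCR16, highest in CAP, and METTL15, highest in ACT CAP. Genes are not replicates, so these counts describe the lists, and no test between the classes was run.

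Compared gene by gene, loss of 10 assembly factors was tolerated better in ACT than in EtOH. They were METTL17, NOA1, YBEY, RBFA and C1QBP of the small subunit and GTPBP8, GTPBP6, MTG1, DDX28 and DHX30 of the large subunit, with z differences from 4.56 to 8.28. No translation factor passed. Each comparison gives the z difference, and a test of the beta difference over the joined standard errors, centred and scaled on all genes (the Wald difference), whose 2-sided p from the normal distribution was adjusted by Benjamini-Hochberg over the 19112 genes. A gene is said to rise or fall only if this adjusted p was under 0.05. A z difference of 3, which the study used for ACT against ACT CAP, is given beside it in all comparisons. In ACT against EtOH 10 of 25 assembly factors rose and none fell, and none of the 6 translation factors passed, with 1.08% of all genes rising and 0.157% falling. With a standard normal null, or at an adjusted p under 0.01, 5 of the 10 passed, and MTG1, DDX28, DHX30, RBFA and C1QBP did not. At an unadjusted p under 0.05 by the same test 17 assembly factors and 2 translation factors were higher and none lower (4.94% and 2.80% of all genes). A z difference of 3 or more was reached by 16 assembly factors and by 1 translation factor (4.02% of all genes). The median z difference was 3.80 in the assembly factors and 2.0 in the translation factors, against 0.317 in all genes. All genes together were thus slightly higher under ACT, in which cells also grew more slowly, and the part of slower growth in these differences was not tested. Since the difference can depend on how low a gene starts, it was also given after removal of a running median over the EtOH z. By that measure 9 assembly factors and no translation factor lay at 3 or more (2.26% of all genes), and the class medians were 2.88 and 0.417. Among the lowest genes in EtOH, where the window of the running median was not full, it was held at the nearest full value. This was so for GTPBP8, GTPBP6, MTG1, MTG2, DDX28, RBFA, MTERF4, MALSU1, WBSCR16, TUFM and GFM1. Within that group the dependence on the start was therefore not removed.

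Among factors of the small subunit, METTL17, a methyltransferase-like iron-sulfur protein, had a z of -6.49 in EtOH, 1.78 in ACT, then -4.32 in CAP and -7.29 in ACT CAP. It stood at the 1.48 percentile of all genes in EtOH and at the 98.1 percentile in ACT. Its beta rose by 1.28 ± 0.216 in ACT against EtOH (z difference 8.28, Wald difference 6.39), the largest rise among the 31 genes. NOA1 had a z of -2.73 in EtOH, 4.86 in ACT, then -1.18 in CAP and -0.809 in ACT CAP. It started near the middle of all genes and reached rank 5 from the top in ACT, with a beta higher by 1.04 ± 0.194 (z difference 7.59, Wald difference 5.78). Of the 10 rising members NOA1 was the one whose z in EtOH lay nearest to the median of all genes, and the one with the highest z in ACT.

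YBEY, an endoribonuclease that matures the small-subunit RNA, had a z of -6.16 in EtOH, 0.618 in ACT, then -2.74 in CAP and -2.46 in ACT CAP. It rose in ACT (z difference 6.78, Wald difference 5.16) and lay between EtOH and ACT in both conditions with CAP. C1QBP, a matrix chaperone that binds YBEY, had a z of -6.44, -1.88, -4.13 and -4.32 in the same order and also rose in ACT (z difference 4.56, Wald difference 3.48). RBFA, which binds the small-subunit RNA late in its maturation, had -7.94, -3.21, -5.31 and -6.48 and rose in ACT as well (z difference 4.73, Wald difference 3.57). With the EtOH trend removed, C1QBP and RBFA were at 2.88 and 2.96, just under 3. ERAL1, a GTPase that chaperones the small-subunit RNA, had -6.26, -3.99, -4.88 and -5.89, and its ACT difference of 2.26 did not pass.

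The methyltransferases of the small-subunit RNA gave smaller ACT differences than the small-subunit factors that rose. NSUN4, which places methylcytosine and works with MTERF4, had a z of -4.10 in EtOH, -0.305 in ACT, then -2.58 in CAP and -2.99 in ACT CAP, and its ACT difference of 3.80 did not pass the test (Wald difference 2.78). TFB1M, which dimethylates adenosines, had -3.36, -2.52, -2.82 and -3.22. METTL15, which methylates a cytosine, had -3.13, -3.26, -3.50 and -1.53. Neither TFB1M nor METTL15 passed in ACT, with beta differences of 0.131 (95% interval -0.296 to 0.558) and -0.0218 (95% interval -0.412 to 0.369). These intervals exclude a rise in beta as large as that of METTL17. That of TFB1M holds the value of 0.466 estimated for DHX30, which passed, whereas that of METTL15 does not. The interval of DHX30 itself, 0.191 to 0.741, overlaps both, so neither gene is shown to differ from it.

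Among the large-subunit GTPases, GTPBP8 had a z of -6.89 in EtOH, 0.124 in ACT, then -5.0 in CAP and -7.06 in ACT CAP. It went from the 0.968 to the 88.2 percentile of all genes in ACT (z difference 7.02, Wald difference 5.35) and was back at the 0.303 percentile with both drugs. GTPBP6 had -9.15, -3.77, -5.82 and -9.62 and rose in ACT (z difference 5.38, Wald difference 4.09), although its guides were still lost there. MTG1, a GTPase that checks the maturing large subunit, had -8.87, -3.94, -6.40 and -6.98 and rose in ACT (z difference 4.93, Wald difference 3.70). The Obg-family GTPases MTG2 and GTPBP10, which act on the large subunit, had z differences of 2.62 and 2.56 in ACT that did not pass. MTG2 had a z of -6.77, -4.15, -6.36 and -5.57 in the order EtOH, ACT, CAP and ACT CAP. GTPBP10 had -4.39, -1.83, -3.34 and -4.14. All 7 assembly GTPases thus had a higher z in ACT than in EtOH, as had 60.2% of all genes, and 4 of them passed the test, against 1.08% of all genes rising.

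Both RNA helicases rose in ACT. DDX28, a DEAD-box helicase of the large subunit, had a z of -7.07 in EtOH, -2.17 in ACT, then -4.59 in CAP and -6.16 in ACT CAP (ACT z difference 4.89, Wald difference 3.69). DHX30, a DEAH-box helicase of mitochondrial RNA granules, had -6.27, -1.59, -4.66 and -4.10 (ACT z difference 4.68, Wald difference 3.49). DHX30, like C1QBP, was close to the smallest Wald difference that passed among all genes, 3.43.

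None of the 3 methyltransferases that mark the ribose of large-subunit RNA passed in ACT. RNMTL1 had a z of -6.33, -2.08, -4.94 and -5.43 in the order EtOH, ACT, CAP and ACT CAP, with an ACT difference of 4.24 and a Wald difference of 3.18 that missed the threshold. MRM1 had -4.89, -0.848, -2.01 and -1.23, with an ACT difference of 4.04 and a Wald difference of 2.96. Its z was also above that of EtOH in CAP, by 2.87, and in ACT CAP, by 3.66. FTSJ2 had -4.39, -2.69, -3.05 and -4.13, and its ACT difference was 1.70.

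The other large-subunit factors did not pass in ACT. NGRN, which binds large-subunit RNA together with pseudouridine synthases, had a z of -3.77 in EtOH, -0.0227 in ACT, then -2.32 in CAP and -2.65 in ACT CAP (ACT difference 3.75). MPV17L2, an inner membrane protein of mitoribosome assembly, had -3.46, 0.0953, -1.83 and -2.30 (ACT difference 3.55). MTERF4, which recruits NSUN4 to the ribosome, had -6.83, -3.56, -4.68 and -6.06 (ACT difference 3.27). These 3 genes had z differences above 3 without passing the stricter test. MALSU1, a silencing factor that keeps the immature large subunit from joining, had -7.55, -4.64, -6.18 and -7.17. MTERF3, a nucleic acid binding protein of the mTERF family, had -4.69, -2.35, -3.75 and -4.24. WBSCR16, a partner of the assembly GTPases, was the assembly factor with the lowest ACT difference, at -0.476, and had -6.84, -7.31, -5.30 and -7.19. Its 95% interval of the ACT beta difference ran from -0.569 to 0.389.

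By subunit, 5 of 9 small-subunit factors and 5 of 16 large-subunit factors rose in ACT, against 1.08% of all genes. Their median z differences were 4.56 and 3.65, and the ranges, -0.136 to 8.28 and -0.476 to 7.02, overlapped almost wholly. By kind of protein, 4 of 7 GTPases, 2 of 2 helicases, 1 of 7 methyltransferases or methyltransferase-like proteins and 3 of 9 other factors rose, beside the same share of all genes.

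Of the translation factors TUFM, TSFM and MTIF3 had their highest percentile in CAP, and GFM1, GUF1 and MTIF2 in ACT, as most assembly factors did. TUFM had a z of -9.27 in EtOH, -7.54 in ACT, then -6.42 in CAP and -9.56 in ACT CAP. TSFM, the elongation factor Ts that recharges TUFM, had -5.30, -4.72, -4.06 and -6.46. Both were highest in CAP and lowest in ACT CAP. In ACT against EtOH their beta differences were 0.337 (95% interval -0.209 to 0.883) and 0.0890 (95% interval -0.344 to 0.522). The values estimated for GTPBP8 and YBEY, 0.821 and 0.851, lie outside the interval for TSFM but not for TUFM. The intervals of GTPBP8 and YBEY, which begin at 0.497 and 0.504, still overlap that of TSFM. GFM1, the elongation factor G that moves the ribosome along, had -7.91, -4.09, -5.35 and -8.63. Of the 6 factors it came closest to passing in ACT, with a z difference of 3.82 and a Wald difference of 2.81. GUF1, a LepA-like GTPase whose loss had a small beta of -0.179 ± 0.0511 in EtOH, had a z of -3.51, -0.525, -1.42 and -2.26. The initiation factors had unlike profiles. MTIF2, which places the initiator tRNA, had -5.91, -3.64, -4.09 and -5.95. MTIF3, which keeps the subunits apart before initiation, had -2.61, -3.97, -0.805 and -0.899, so its z was lowest in ACT, with an ACT difference of -1.36 that did not pass. Over the 6 tests made here 10 assembly factors and 1 translation factor passed at least once, and 20 of the 31 genes in none, where 1.89% of all genes passed at least once. Of the 25 assembly factors, 12 had a larger ACT difference than every translation factor, and 0 had a smaller one. The highest translation factor was GFM1 and the lowest MTIF3, at ranks 374 and 17428 from the top among all 19112 genes. With 6 translation factors, each of these bounds rests on 1 gene.

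**Figure D2:**
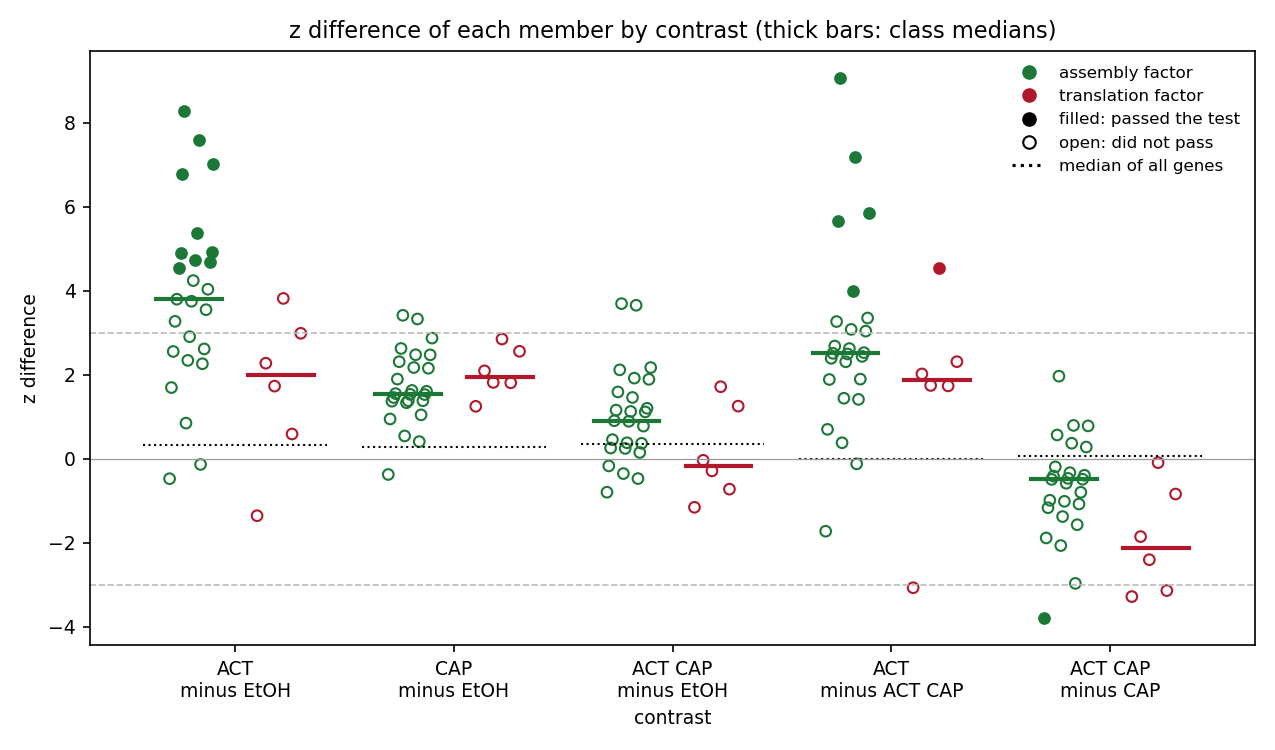
Each point is a gene, placed by its z difference (vertical axis) in 5 comparisons of conditions (horizontal axis); filled points passed the test, thick bars are class medians, dotted bars the median of all genes and dashed lines mark 3 and -3. In ACT minus EtOH the medians are 3.80 and 2.0, and in ACT CAP minus CAP the translation factors lie at a median of -2.13.

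CAP alone and both drugs together gave no passing member against EtOH. In CAP 0 of 31 members passed, where 0.188% of all genes rose and 0.0628% fell, and at an unadjusted p under 0.05 by the same test 9 were higher and none lower (3.91% and 2.93% of all genes). The median z difference was 1.55 in the assembly factors and 1.96 in the translation factors, against 0.285 in all genes, and 30 of 31 members were above EtOH (61.2% of all genes were), METTL15 at -0.375 being the exception. YBEY and GTPBP6 reached z differences of 3.42 and 3.33 (1.13% of all genes reached 3). With the EtOH trend removed no member lay at 3 or more (0.220% of all genes did), and the class medians were 0.419 and 0.937. In ACT CAP 0 of 31 passed as well (0.194% of all genes rose and 0.0837% fell), with 2 higher and none lower at an unadjusted p under 0.05 by the same test (3.75% and 3.01% of all genes). These were YBEY and MRM1, at z differences of 3.69 and 3.66, and 1.27% of all genes reached 3. The class medians were 0.905 and -0.164, against 0.360 in all genes. With the EtOH trend removed they were -0.581 and -1.71, so that by their medians both classes lay below the running median over the EtOH z. For the lowest genes in EtOH, TUFM among them, that running median was a shared value and not that of genes of like z. The comparisons with EtOH share its values and are given side by side for this reason.

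The next comparison asked how far the loss of these genes was tolerated in ACT alone against ACT CAP, in which CAP stops the translation that ACT disturbs. Here 5 of 25 assembly factors and 1 of 6 translation factors rose and none fell, with 0.534% of all genes rising and 0.288% falling. METTL17 ranked 1 and GTPBP8 ranked 4 among all genes, and GTPBP6 (z difference 5.85, Wald difference 5.71) and NOA1 (z difference 5.67, Wald difference 5.40) ranked 10 and 12. DDX28 passed with a z difference of 3.99 (Wald difference 3.87). GFM1 was the translation factor that passed, with a beta higher by 0.611 ± 0.187 in ACT (z difference 4.54, Wald difference 4.42). With a standard normal null METTL17, GTPBP8 and GTPBP6 still passed, whereas NOA1, DDX28 and GFM1 did not, which leaves no translation factor. A further 4 assembly factors had differences of 3 or more without passing, RNMTL1 at 3.35, RBFA at 3.27, YBEY at 3.08 and MTG1 at 3.04 (1.25% of all genes reached 3). MTIF3 was the member on the other side, at -3.07 (Wald difference -2.93), without passing (0.665% of all genes lay at -3 or less). The class medians were 2.51 and 1.88, against -0.0173 in all genes, and 23 of 25 assembly factors and 5 of 6 translation factors were above 0, as were 49.3% of all genes.

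ACT added to CAP is the remaining comparison, of ACT CAP with CAP, and shares no condition with that of ACT and EtOH. Only GTPBP6 passed, and it fell, with a beta difference of -0.561 ± 0.203, a 95% interval from -0.959 to -0.163 and a Wald difference of -4.55. Over all genes 0.0209% rose and 0.0262% fell. This call rests on the narrow spread of all genes in the comparison, since the unscaled value was -2.76, which does not pass a standard normal null, and it also did not pass at an adjusted p under 0.01. GFM1 and TUFM had z differences of -3.28 and -3.14 (Wald differences -3.91 and -3.77), and METTL17 had -2.97 (Wald difference -3.58), none of which passed. A z difference of -3 or less was thus reached by 3 members (0.157% of all genes), and by 4 with the trend over the CAP z removed (0.131% of all genes). All 6 translation factors were lower in ACT CAP than in CAP, as were 19 of 25 assembly factors and 46.7% of all genes. At an unadjusted p under 0.05 by the same test 4 of 6 translation factors and 4 of 25 assembly factors were lower, against 3.13% of all genes, and 1 assembly factor, METTL15, was higher, against 3.08%. The median z difference was -2.13 in the translation factors and -0.492 in the assembly factors, against 0.0688 in all genes. Among the translation factors the lowest 3 were the elongation factors GFM1, TUFM and TSFM (-2.41), followed by MTIF2 at -1.85, GUF1 at -0.841 and MTIF3 at -0.0936.

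**Figure D3:**
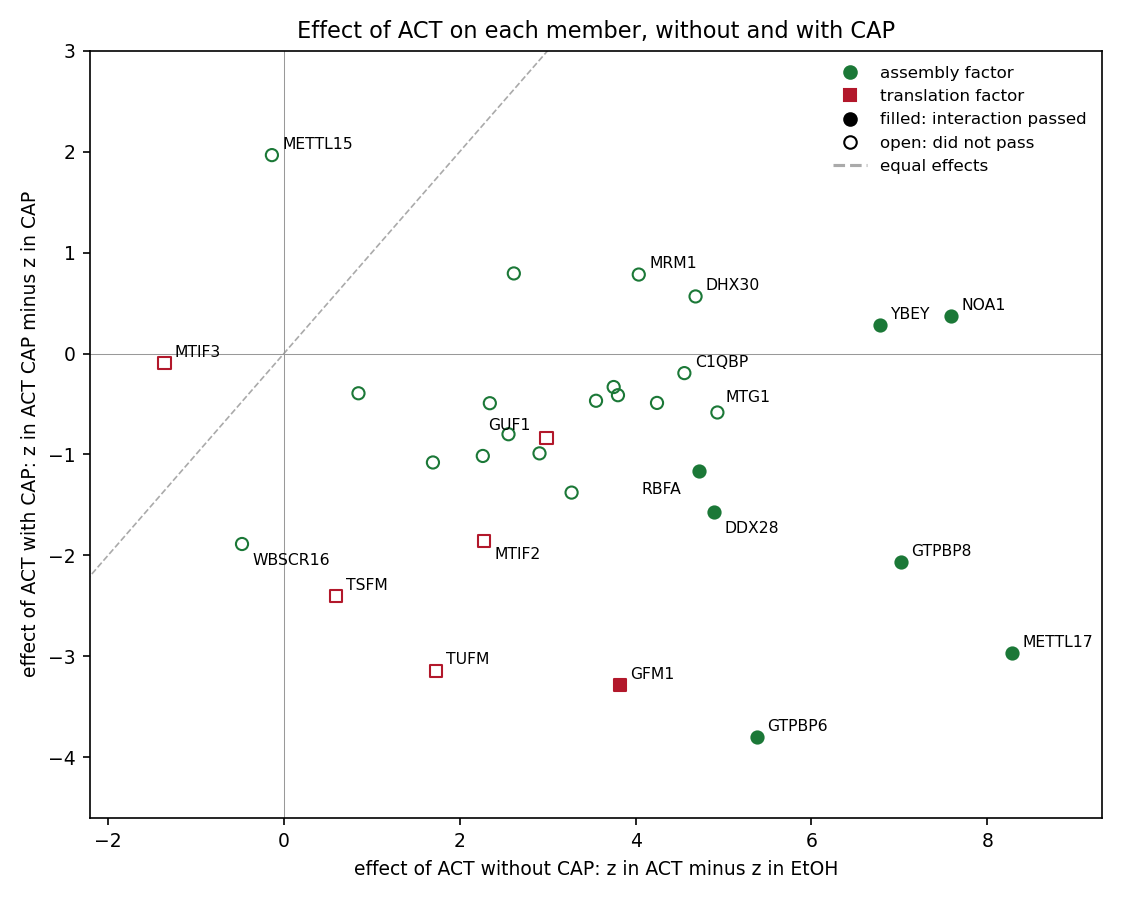
Each point is a gene; the horizontal axis is its z in ACT minus that in EtOH, the vertical axis its z in ACT CAP minus that in CAP, and filled points passed the test of the interaction. All but METTL15 and MTIF3 lie below the dashed line of equal effects, METTL17 farthest to the right at 8.28 and GTPBP6 lowest at -3.80.

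Whether the effect of ACT differed with and without CAP was tested directly by the interaction, the beta difference of ACT CAP and CAP minus that of ACT and EtOH. It passed for 7 of 25 assembly factors and 1 of 6 translation factors, all towards a lower effect of ACT with CAP, where 0.513% of all genes passed in that direction and 0.0994% in the other. The assembly factors were METTL17 (interaction beta -1.75 ± 0.308, Wald difference -7.40), GTPBP6 (Wald difference -6.07), GTPBP8 (-5.90), NOA1 (-4.63), DDX28 (-4.20), YBEY (-4.18) and RBFA (-3.83). Against a standard normal null METTL17, GTPBP6 and GTPBP8 passed, and NOA1, GFM1, DDX28, YBEY and RBFA did not. By the z values themselves 23 members lay at -3 or less (5.50% of all genes), and 16 with the trend over the EtOH z removed (3.63% of all genes). The translation factor was GFM1 (interaction beta -0.952 ± 0.265, Wald difference -4.63). The effect of ACT was smaller with CAP in 24 of 25 assembly factors and 5 of 6 translation factors, against 56.6% of all genes. Class medians of the interaction z were -4.12 and -3.98, against -0.245 in all genes, so the classes lay close together in this measure. The median effects of ACT without and with CAP were 3.80 and -0.492 in the assembly factors, and 2.0 and -2.13 in the translation factors.

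Other genes of mitochondrial translation were read from lists chosen, like the members, with earlier results known, and their counts in ACT against EtOH stand beside 1.08% of all genes rising and 0.157% falling. Of 82 mitoribosomal proteins, 16 rose in ACT against EtOH and none fell, with a median z difference of 2.48. In ACT against ACT CAP 13 rose and none fell, with a median of 1.96 (0.534% of all genes rose). Of 8 release, rescue and recycling factors 4 rose in ACT against EtOH (median 4.70), led by C6orf203, which acts with a rescue factor, and HEMK1, which methylates release factors. Of 6 genes of large-subunit pseudouridine and other rRNA modification 2 rose (median 3.18), RPUSD3, a pseudouridine synthase, with a z difference of 7.02 and FASTKD2, which binds the large-subunit RNA, with 5.77. Of 4 genes of initiator methionine formylation and removal 1 rose, METAP1D, the mitochondrial methionine aminopeptidase, with 6.78 (median 2.69). Of 8 genes of RNA granules and mRNA delivery GRSF1, a granule protein, rose by a z difference of 6.07 and PTCD2, a PPR protein, had the lowest, -11.9, and fell. In ACT CAP against CAP the list medians ran from -0.744 to 0.164, and none of the 108 genes passed the same test, which with 0.0209% of all genes rising and 0.0262% falling is no result about the lists.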

How the data were processed

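Reads were quality-checked and processed in a single batch by the authors, who fitted sgRNA counts with MAGeCK (version not given in the sources used here) over the 3 replicates of each condition. The methods give mean mappable reads per replicate, and the depth of each sample was not used here. The authors deposited beta and z scores per gene and condition, with p-values. The methods describe z-scored averages over triplicates, whereas the deposited z is a fitted coefficient over its standard error. The deposited p-value columns were not used, except the Wald p-value, from which 1146 of 76448 z scores that stood as dates were restored with the sign of beta. On intact values this came within 0.00102 of the deposited z. The beta that stood as a date (1 value) was rebuilt from z and the standard error.

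Standard errors were taken as beta divided by z. Divided by the EtOH error they lay within 0.996 and 1.01 (percentiles 1 and 99 over genes). Beta differences over the joined standard errors were centred on the median and scaled by 1.4826 times the median absolute deviation of all genes. The 2-sided normal p was adjusted over 19112 genes (Benjamini-Hochberg, 0.05). It is approximate with 3 replicates. The 95% intervals reach 1.96 joined standard errors to either side of the beta difference. They were not centred or scaled on all genes, so they need not match the calls. The running median covered 501 genes ordered by the z of the second condition. At both ends, where this window was not full, the nearest full value was used.

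Members, classes and lists were chosen with earlier results of these data known. All members are named, and of the other lists up to 2 with the largest Wald difference. Symbols were matched to RefSeq names (28 directly and 3 by synonym). Alternatives were z differences of 3 and 4, an unscaled normal null, a stricter adjusted p (0.01), the running-median residual, genes with 4 sgRNAs, beta, standardised z, means and other memberships. Scripts ran in Python 3.11.15 with scipy 1.17.1, numpy 2.4.6, matplotlib 3.10.9 and pandas 2.3.3. Guide sequences were not used here.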

Additional observations from a re-analysis of the deposited data

Results flagged for a closer look

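The effect of ACT differed with and without CAP, by the interaction test adjusted over all genes, for 8 of the 31 genes, all towards a lower effect with CAP (0.513% of all genes were lower and 0.0994% higher). The Wald difference of the interaction was -7.40 for METTL17, -6.07 for GTPBP6, -5.90 for GTPBP8, -4.63 for NOA1, -4.63 for GFM1, -4.20 for DDX28, -4.18 for YBEY and -3.83 for RBFA. With a standard normal null METTL17, GTPBP6 and GTPBP8 passed and the other 5 did not. In METTL17, GTPBP6, GTPBP8, GFM1, DDX28 and RBFA the z was higher in ACT than in EtOH and lower in ACT CAP than in CAP. Of these lower values with CAP only that of GTPBP6 passed its own test, and not with a standard normal null. Of the higher values without CAP that of GFM1 did not pass, and those of DDX28 and RBFA did not with that null. In NOA1 and YBEY ACT raised the z without CAP by 7.59 and 6.78, and the differences with CAP, 0.369 and 0.278, were close to 0. No value per replicate was at hand to look for a single sample apart from the others.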

How the results depend on the processing

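Single members were followed in each comparison in which they passed the test or had a z difference of at least 3 in size. None of these changed direction under an alternative. They had been picked for a large difference, and the alternatives use the same fitted values, which left little room for such a change. The restriction to genes with 4 sgRNAs dropped no member. Of the 348 values of the followed members under an alternative, 264 were on the same side of the threshold as reported. A further 58 passed where the reported test had not, and 26 no longer passed. Smaller differences were not followed. For ACT against EtOH, 10 members rose, 17 had a z difference of 3 or more, 5 rose with a standard normal null and 5 at an adjusted p under 0.01, where MTG1, DDX28, DHX30, RBFA and C1QBP no longer passed. For CAP against EtOH and for ACT CAP against EtOH, a z difference of 3 gave 2 members each in place of 0. For ACT against ACT CAP, 6 rose, 10 had a z difference of 3 or more and 3 rose with the standard normal null, and 1 (MTIF3) lay at -3 or less in place of 0 that fell. For ACT CAP against CAP, 1 fell, 3 lay at -3 or less, 4 did by the residual from the running median, and 0 were left at -4, with the standard normal null or at an adjusted p under 0.01. For the interaction, 8 fell, against 23 at -3, 18 at -4, 16 by the residual and 3 with the standard normal null. The median of the assembly factors minus that of the translation factors went from 1.80 to 1.03 with z standardised in each condition (ACT against EtOH), from 1.07 to 1.78 (ACT CAP against EtOH) and from 1.64 to 3.85 (ACT CAP against CAP) with beta differences over their robust SD, and from 0.628 to 1.27 with means (ACT against ACT CAP). In ACT 5 assembly factors lay in the lowest 10% by z, 11 by beta and 1 in the lowest 5%. In the lowest 5%, 2 translation factors lay in ACT and 2 in CAP, against 4 in the lowest 10%. The causes of these differences were not tested. No paired analysis was possible because the table holds 1 fitted value per gene and condition, and for the same reason no replicate could be left out. The depth of each sample was not used here, and the standard error of the fit sets the precision.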
